A study of Rattus norvegicus with 54 samples.

Results

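The regional baseline of the sham-operated rat heart was examined by setting the border position against the remote position of the same hearts. The members were the 12 libraries whose labels give sham surgery and these positions, 6 of the border position and 6 of the remote position, out of 54 libraries in the series. The libraries were paired by animal, since the same replicate number marks pieces of the same heart. All animals were female athymic F344/NJcl-rnu/rnu nude rats, which lack mature T cells, and were 8 weeks old. The sham hearts received no treatment and were sampled 1 week after surgery. The study's methods describe a left anterior thoracotomy with opening of the pericardium for the infarcted animals and do not list the sham steps one by one, so differences between positions include whatever the sham surgery did to each position. The border position is a piece of the lateral left ventricular wall, the remote position is the ventricular septum, and the infarct position, used here only for reference, is the anterior wall. No infarct was made in these hearts, so the names of the positions refer to where tissue was cut.

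The full series compares sham, untreated myocardial infarction (MI) and MI treated with a cell sheet of human smooth muscle cells and endothelial progenitor cells, with 6 animals in each and 3 positions per heart. RNA was taken from pulverised frozen tissue, enriched for poly-A transcripts and sequenced. The labels call the libraries technical replicates while the methods describe separate animals. If the labels are right, the p-values below measure technical spread only.

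The ventricular septum and the left ventricular free wall differ in origin, wiring and load. The septum carries the His bundle and the proximal bundle branches, whose cells express pacemaker and T-type calcium channels. The outer face of the free wall is covered by the epicardium. In bulk tissue a piece also mixes cardiomyocytes, which supply most of the RNA, with fibroblasts, endothelial cells, smooth muscle, macrophages and blood. The respiratory chain of the mitochondria, the cytosolic ribosome and the contractile apparatus dominate the transcriptome of the working myocardium.

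The sequences before the annotated start of 5 of the genes with regional differences are given to show the DNA that the transcripts described below start from. Cox7c, Ndufa1 and Tomm7 encode small mitochondrial proteins and were higher in the border position. Tbx5, a T-box transcription factor, and Myh6, the alpha myosin heavy chain, were lower. Each line gives 200 bases, read 5′ to 3′ on the strand of the gene, from RefSeq's GRCr8 assembly, which is not the mRatBN7.2 assembly to which the reads were aligned. The windows are chr2:18579171-18579370 on the minus strand for Cox7c, chrX:121293556-121293755 on the minus strand for Ndufa1, chr4:12197303-12197502 on the plus strand for Tomm7, chr12:42395360-42395559 on the minus strand for Tbx5 and chr15:32411698-32411897 on the minus strand for Myh6.
Cox7c: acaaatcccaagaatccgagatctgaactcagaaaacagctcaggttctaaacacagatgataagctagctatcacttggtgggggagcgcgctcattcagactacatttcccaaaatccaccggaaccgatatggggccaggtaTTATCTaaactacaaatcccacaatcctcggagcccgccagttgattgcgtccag
Ndufa1: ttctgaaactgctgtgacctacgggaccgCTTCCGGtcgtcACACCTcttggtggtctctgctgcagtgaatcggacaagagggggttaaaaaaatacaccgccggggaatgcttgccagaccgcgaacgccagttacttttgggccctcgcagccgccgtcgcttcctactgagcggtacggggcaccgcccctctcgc
Tomm7: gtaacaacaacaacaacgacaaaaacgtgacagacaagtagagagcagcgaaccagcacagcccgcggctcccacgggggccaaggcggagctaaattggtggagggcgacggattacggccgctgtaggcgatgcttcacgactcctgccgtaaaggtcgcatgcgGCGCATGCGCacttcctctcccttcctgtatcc
Tbx5: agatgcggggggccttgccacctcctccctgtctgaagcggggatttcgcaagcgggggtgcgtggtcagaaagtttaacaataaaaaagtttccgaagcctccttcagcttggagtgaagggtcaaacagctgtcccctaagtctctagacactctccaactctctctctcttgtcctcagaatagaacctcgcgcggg
Myh6: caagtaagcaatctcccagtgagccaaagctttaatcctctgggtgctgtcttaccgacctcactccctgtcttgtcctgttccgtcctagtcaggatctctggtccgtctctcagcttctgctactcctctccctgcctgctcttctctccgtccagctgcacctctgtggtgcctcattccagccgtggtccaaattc
Capitals mark matches to 6 short motifs searched on both strands, namely the ETS core CCGGAAG, the TATA box TATAAA, the T-box core AGGTGT, the E-box CACGTG, the letters AGATAA bound by GATA factors, and the NRF1 site, whose letters are those in capitals in the Tomm7 line. The Cox7c window held 1 match for GATA factors on the other strand, 55 to 50 bases before the start. The Ndufa1 window held CTTCCGG, an ETS core on the other strand, 171 to 165 bases before the start and ACACCT, a T-box core on the other strand, 159 to 154 bases before it. The Tomm7 window held the NRF1 site, which reads the same on both strands, 33 to 24 bases before the start. NRF1 is a factor known for nuclear genes of the mitochondria, and its site was present in 0.790% of the 27457 promoters of the same length. The other shares were 7.15% for the ETS core, 10.5% for the TATA box, 9.05% for the T-box core, 7.94% for the GATA letters and 4.88% for the E-box. The Tbx5 and Myh6 windows held none of these letters. A match describes the letters alone, not a bound site. Hcn4 and Gata4, described below, are named without sequence.

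The 12 libraries held between 13794048 and 20771868 counts on genes, so counting error was small for all but the weakest genes. Cardiomyocyte markers were abundant in every library, with the mean log2 level of the marker list at 11.14 in the libraries of animal 5 and between 12.17 and 12.57 in the others. The defining markers of heart muscle were thus present in all 12. Both libraries of animal 5 stood apart. The first principal component held 93.5% of the variance of the 500 most variable genes and placed them at 64.4 in the border position and 56.6 in the remote position, against -16.6 to -6.39 for the other 10. The mean log2 level of MHC class II genes was 9.12 in animal 5 and between 3.93 and 4.92 in the others, and that of macrophage genes was 6.92 against 3.64 to 4.50. The mean log2 levels of lists of other tissues and cells were also higher in animal 5, at 4.86 for thymus and mediastinal lymphoid genes (0.10 to 1.95 in the others), 3.87 for lung epithelium genes (0.91 to 2.10), 5.19 for T and NK cell genes (0.98 to 2.79), 8.08 for monocyte and dendritic genes (3.73 to 4.66) and 4.61 for cell cycle genes (1.84 to 2.46). The gene tests of border against remote were also run without animal 5, while the medians set beside those of other positions and treatments include it.

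The 2 positions also differed in a measure of the libraries themselves. Reads with no unique alignment made up 3.12%, 3.32% and 3.55% of counts in the border libraries at the lowest, the median and the highest, against 3.62%, 4.46% and 5.84% in the remote libraries. The share was lower in the border piece of all 6 hearts and the groups did not overlap. The mean difference was -1.37 percentage points ± 0.996 (SD, n = 6), with an exact sign-flip test giving p = 0.03125, the lowest that 6 pairs allow, and 0.156 after adjustment over 5 library measures. The difference was +0.12 points in untreated MI hearts and +1.16 points in cell sheet hearts. Rn45s, the ribosomal RNA precursor that poly-A selection is meant to remove, was at 81.4, 151 and 265 CPM (read counts scaled to the size of the library with TMM factors) in border libraries and at 107, 282 and 594 in remote libraries, lower in the border piece of 6 of 6 hearts (log2 fold change -0.85, SE 0.14, edgeR adjusted p = 0.00178, and -0.25 with adjusted p = 0.365 once the share above was in the model). When the share of reads with no unique alignment was added to the model, 781 of the 15074 genes passed, against 3881 without it. Because the share was lower in the border piece of all 6 hearts, this model separates it from position only in part. A call lost with the share in the model therefore does not show that the difference was due to it. The part of the share in the gene results was not tested further.

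**Figure D1:**
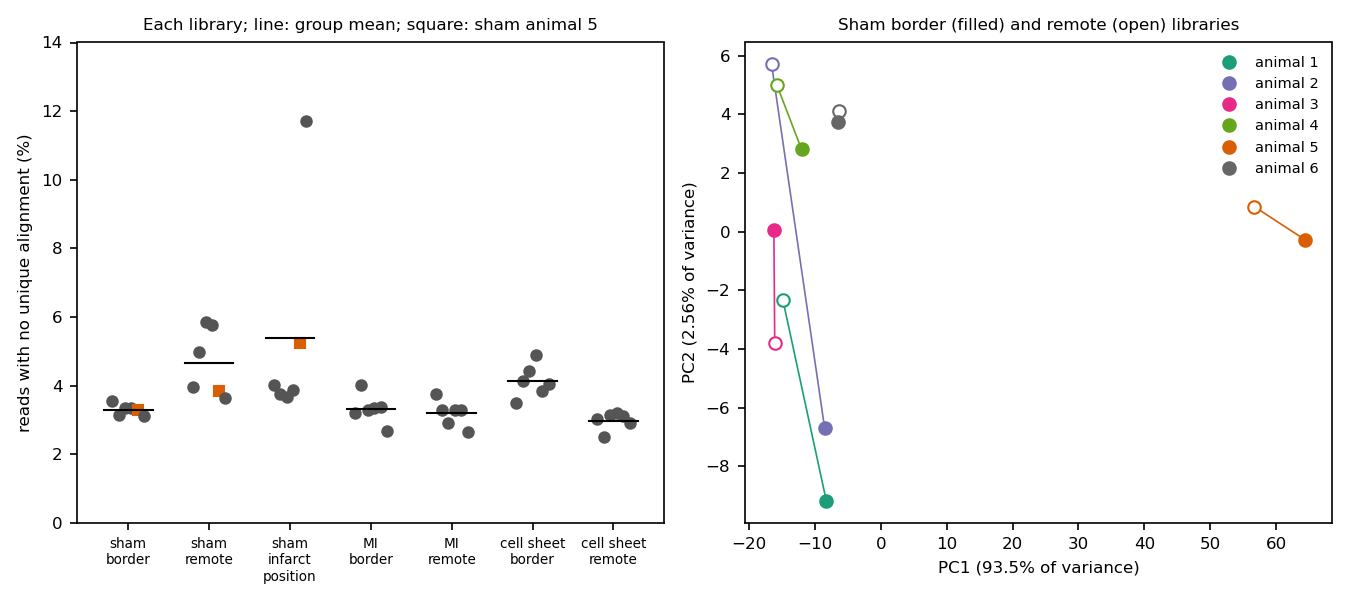
Left, percentage of counts from reads with no unique alignment in each library of 7 groups, 1 point per animal, with a line at the group mean and a square for sham animal 5. The sham border libraries lie between 3.12% and 3.55% and the sham remote libraries between 3.62% and 5.84%. Right, first and second principal components of the 12 sham libraries, with lines joining the pieces of each heart, and both pieces of animal 5 far from the rest on the first component.

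Between the border and remote positions, edgeR's quasi-likelihood test with the animal as a block called 3881 of 15074 genes at an adjusted p under 0.05, which is 25.7%. Of these, 1919 were higher in the border position (12.7% of genes tested) and 1962 were lower (13.0%). The differences were small. The median log2 fold change, border over remote, of the called genes was 0.40 for those higher and -0.34 for those lower, and 102 genes differed by over 1 on this scale, 86 higher and 16 lower. Over all genes the median was 0.01. In 301 genes (2.00%) every border library exceeded every remote library, and in 256 genes (1.70%) every border library was below every remote library. Because these are bulk pieces, fewer cells of a type and less RNA per cell cannot be told apart. Transcript lengths and RNA integrity values were not used here, so a part of either in the gene differences was not tested. Without the animal block 307 genes were called, all of them among the 3881. Of the 121 called genes examined singly, 99 lost the call without the block and 71 lost it with the share of reads with no unique alignment in the model, and those of the latter that are described below are named there. Without animal 5 the count was 2820, of which 2729 were shared with the full set, and 3872 of the 3881 genes kept their sign.

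Genes of the mitochondrial respiratory chain were higher in the border position. Of the 49 tested members of an oxidative phosphorylation list, 23 were higher and 2 were lower, with a median log2 fold change of 0.21. The complete families, which were assembled after values had been seen and are given as a description, showed the same by complex. Complex I, which takes electrons from NADH, had 25 of 38 tested subunits higher and 2 lower, with a median of 0.39. Complex III had 5 of 9 higher and none lower (median 0.50), complex IV, the oxidase that reduces oxygen, had 10 of 16 higher and none lower (0.53), and the ATP synthase had 10 of 16 higher and none lower (0.33). The mean log2 level of complex I was higher in the border piece of all 6 hearts, by 0.09 to 0.65. The lowest of these differences was that of animal 5. Without animal 5, 29 complex I subunits were higher and 1 was lower. With the share of reads with no unique alignment in the model, 7 complex I subunits were higher and none lower. In that model 1 subunit of complex III, 5 of complex IV and none of the ATP synthase were higher. Of the oxidative phosphorylation list 6 genes were higher there and none lower. Without the animal block 1 complex I subunit was higher.

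Cox7c, a small subunit of complex IV, was at 595, 1044.5 and 1693.8 CPM in border libraries and at 255, 566 and 621 CPM in remote libraries. It was higher in the border piece of all 6 hearts, and the groups overlapped only through the low values of animal 5. Its log2 fold change was 1.10 (SE 0.12, edgeR adjusted p = 0.000316), a 2.14-fold difference. Cox8b, the striated muscle isoform of another small complex IV subunit, rose by 1.02 (SE 0.17, adjusted p = 0.00182), from a remote median of 530 CPM to a border median of 1169 CPM. Ndufa1, an accessory subunit of complex I, had CPM values of 165, 282 and 404 in the border position and 88.5, 155 and 170 in the remote position. It was higher in 6 of 6 hearts with a log2 fold change of 0.98 (SE 0.10, adjusted p = 0.000236). Uqcrq of complex III rose by 0.75 and Atp5mk, a small subunit of the ATP synthase membrane part, rose by 1.10. Ndufs1, the largest subunit of complex I, was lower instead in 6 of 6 hearts (log2 fold change -0.38, adjusted p = 0.0274), a call that was lost without animal 5 (adjusted p = 0.0557). Ndufa10 was lower by -0.32. Sdha, the flavoprotein of complex II, and Atp5f1a, the alpha subunit of the ATP synthase, were each lower in 6 of 6 hearts at -0.26 and did not pass the test (adjusted p = 0.0594 and 0.0946). With the alignment share in the model Cox7c and Ndufa1 were called, while Cox8b was at 0.57 (adjusted p = 0.242), Uqcrq at 0.54 (0.0944) and Atp5mk at 0.89 (0.0585), and Ndufs1 and Ndufa10 were not called either (adjusted p = 0.0637 and 0.0555).

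**Figure D2:**
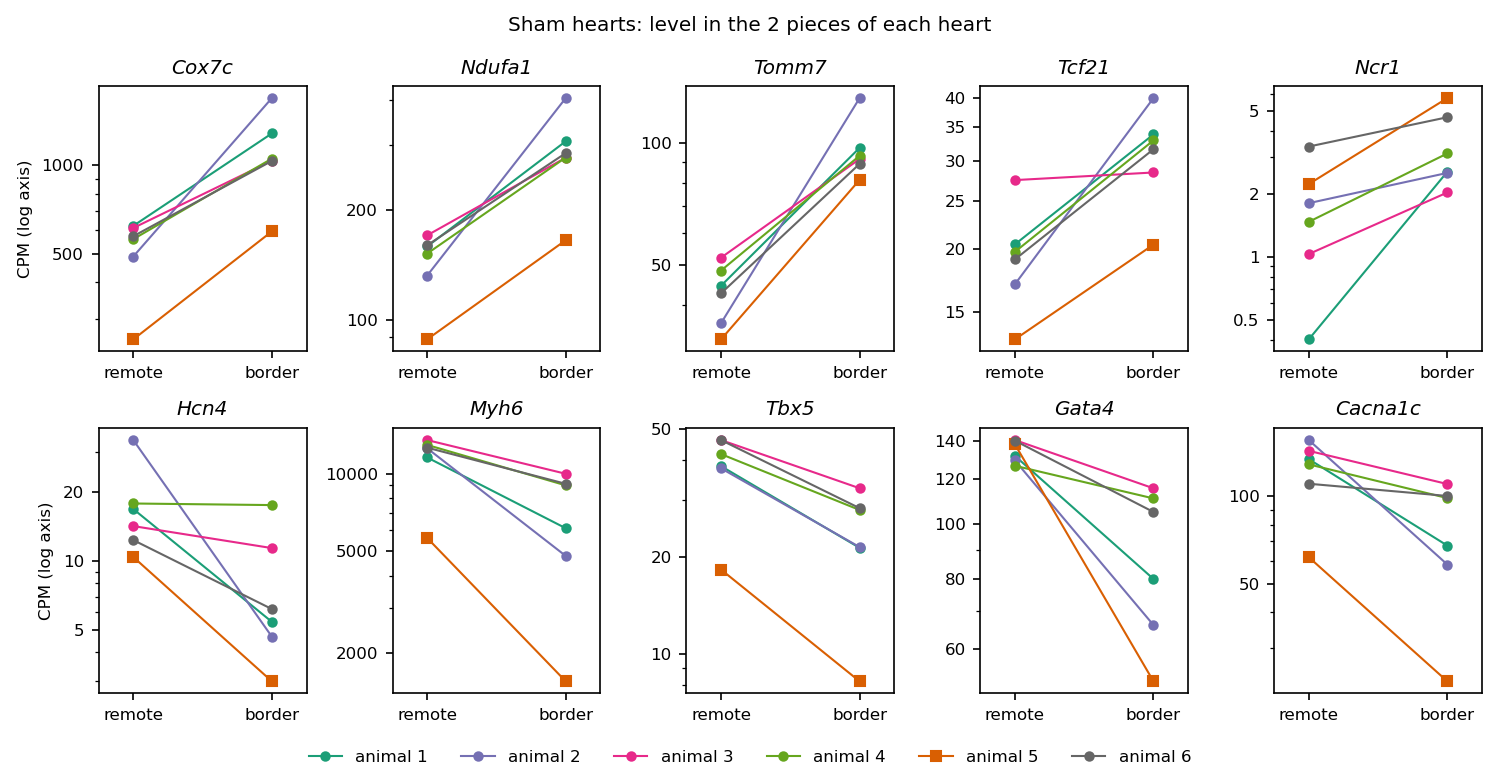
CPM on a log axis of 10 genes in the remote and the border piece of each heart, with a line per animal and a square for animal 5. The upper row holds Cox7c, Ndufa1, Tomm7, Tcf21 and Ncr1, in which all 6 lines rise toward the border position, and the lower row holds Hcn4, Myh6, Tbx5, Gata4 and Cacna1c, in which all 6 fall.

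Genes for the import and synthesis of mitochondrial proteins were higher as well. Tomm7, a small regulator of the outer membrane import pore, was at 81.3, 92.3 and 129 CPM in the border libraries and at 32.9, 43.6 and 52.2 CPM in the remote libraries, so the groups did not overlap. Its log2 fold change was 1.18 (SE 0.11, adjusted p = 0.000183), and the NRF1 letters printed above lie in its promoter window. Among the import translocases, 11 of 23 were higher and 2 lower, and Timm8b, a chaperone of the intermembrane space, rose by 1.00. Of the mitochondrial ribosomal proteins, 41 of 73 were higher and 3 lower (median 0.23). Mrpl54 was the highest of them at 0.93 and did not overlap between positions (116 to 217 CPM against 54.9 to 106), while Mrpl38 fell by 0.34. With the alignment share in the model 5 mitochondrial ribosomal proteins were higher and 2 lower. In that model 6 import translocases were higher and none lower. Without the animal block 4 genes of each family were higher and none lower. Of 17 mitochondrial tRNA and rRNA genes tested, 2 were higher and 7 lower, among them Trnh, the histidine tRNA, at -0.98 (SE 0.08, adjusted p = 0.000183). The tRNAs carry no long poly-A tail and are measured poorly after poly-A selection. No mitochondrial protein-coding gene was found under the symbols searched, so these are not analysed here.

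Ribosome and proteasome genes were higher in the border position. Of 76 cytosolic ribosomal protein genes, 69 were higher and none lower, with a median log2 fold change of 0.48, and in 27 of them the positions did not overlap. The mean log2 level of the family was higher in all 6 hearts, by 0.24 to 1.02. Rps14, a protein of the small subunit, was at 683, 888 and 1191.1 CPM in border libraries and at 383, 438 and 506 CPM in remote libraries, with no overlap and a log2 fold change of 1.04 (SE 0.12, adjusted p = 0.000375). Ribosomal protein genes have many processed copies in the genome, and reads that fit a copy equally well have no unique alignment, so their counts are uncertain. With the share of such reads in the model, 14 of the 76 were higher and none lower. Without animal 5 the count was 66 and without the animal block it was 24. For the proteasome, which degrades tagged proteins, 20 of 37 subunits were higher and 2 lower (median 0.19). Psmb6, a catalytic subunit of its core, did not overlap between positions (134 to 216 CPM against 78.3 to 110, log2 fold change 0.77, SE 0.07, adjusted p = 0.000183). Psmd1, the largest subunit of the regulatory cap, fell by 0.31, a call lost with the alignment share in the model (adjusted p = 0.059). In that model 7 proteasome subunits were higher and none lower, and without the animal block 6 were higher.

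**Figure D3:**
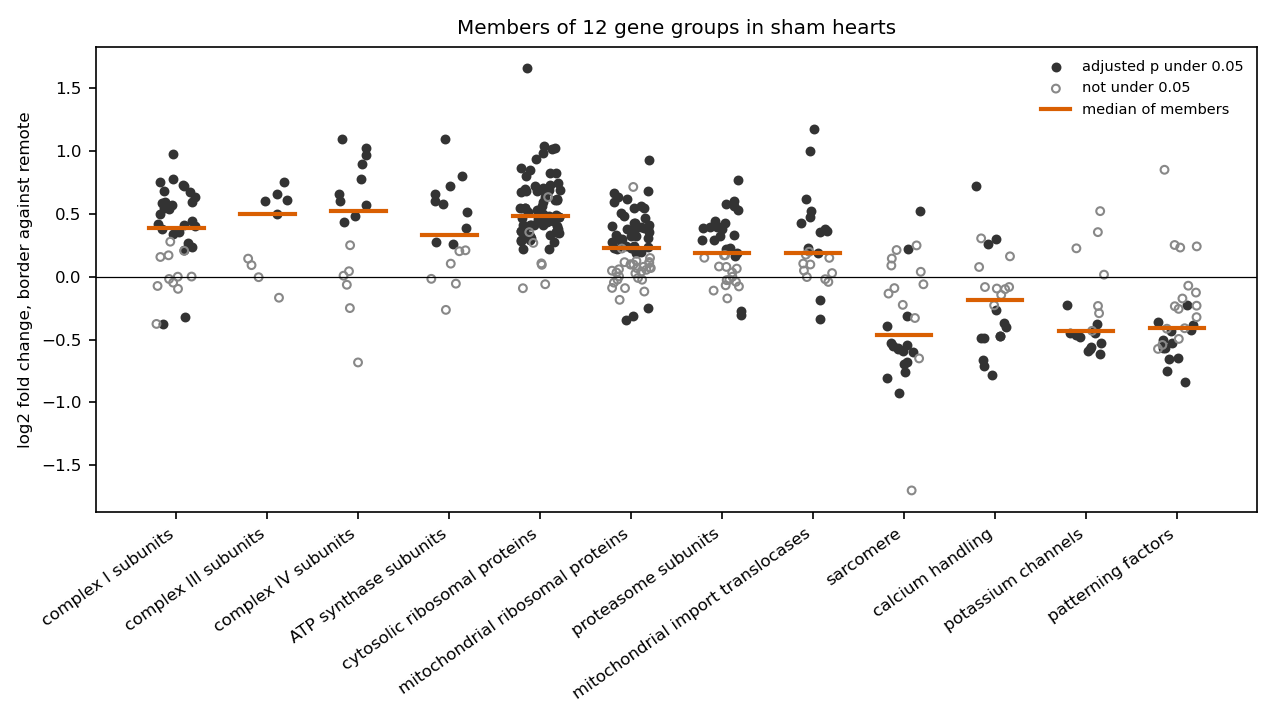
Log2 fold change of each tested member, border over remote, in 12 gene groups, 1 point per gene, filled where the gene passed the test and open where it did not, with a line at the group median. The medians run from 0.53 for complex IV and 0.48 for cytosolic ribosomal proteins to -0.46 for the sarcomere.

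Genes of the contractile apparatus were lower in the border position. Of 28 sarcomere genes, 14 were lower and 2 higher, with a median log2 fold change of -0.46. Myh6 was at 1547.9, 7560.3 and 9984.5 CPM in the border position and at 5609.8, 12589.8 and 13515.5 CPM in the remote position, and was lower in 6 of 6 hearts. Its values overlapped only through the remote piece of animal 5, and the log2 fold change was -0.93 (SE 0.18, adjusted p = 0.00354), or -0.74 without that animal (adjusted p = 0.00385). Myh7, the slower beta myosin heavy chain, fell by 0.81, Actn2, the alpha-actinin of the Z disc, by 0.76, and Ttn, the titin spring, by 0.69. Actc1, cardiac alpha actin, fell by 0.60. Tnni3, cardiac troponin I, rose instead, by 0.52 (SE 0.10, adjusted p = 0.00288), from a remote median of 6658.4 CPM to a border median of 9735.5 CPM. Tcap rose by 0.22. With the share of reads with no unique alignment in the model, 8 sarcomere genes were lower and none higher, and Myh6 was at -1.24 (adjusted p = 0.0536) and Tnni3 at 0.52 (adjusted p = 0.098), so both missed the threshold.

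Genes of calcium and potassium handling were lower as well. Of 22 calcium handling genes, 10 were lower and 3 higher (median -0.19). Ryr2, the calcium release channel, was at 417, 1329.1 and 1645.9 CPM in border libraries against 1165.0, 1897.7 and 2210.8 CPM in remote libraries, and fell by 0.71 (SE 0.15, adjusted p = 0.00485). Cacna1c, the pore of the L-type calcium channel, fell by 0.78 and Atp2a2, the sarcoplasmic reticulum calcium pump, fell by 0.67, both in 6 of 6 hearts. Smpx, a small muscle protein, rose by 0.72. Among the 19 potassium channel genes, 12 were lower and none higher, with a median of -0.43 and a lower list mean in all 6 hearts (-0.66 to -0.10). They included Kcnh2, which carries the rapid delayed rectifier current, at -0.57, Kcnk3, a background channel, at -0.56, and Kcnj2, which carries the inward rectifier, at -0.45. Without animal 5, 11 were lower and 1 higher. With the alignment share in the model 3 were lower, and Kcnh2, Kcnk3, Kcnj2, Cacna1c and Atp2a2 were not called (adjusted p = 0.0749, 0.0639, 0.0639, 0.0688 and 0.0538).

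Conduction system genes gave the largest single fall among named genes. Hcn4, the pacemaker channel of the sinoatrial node and the His-Purkinje system, was at 2.98, 5.81 and 17.6 CPM in the border position and at 10.4, 15.6 and 33.9 CPM in the remote position. It was lower in 6 of 6 hearts, although the groups overlapped, with a log2 fold change of -1.21 (SE 0.29, adjusted p = 0.00945), that is 2.31-fold higher in the septal piece. The call of Hcn4 was lost with the alignment share in the model (-1.91, adjusted p = 0.0556) and without the animal block (adjusted p = 0.207). Of 20 conduction genes, 7 were lower and 1 higher, with a median of -0.41. Hcn2, a related pacemaker channel, fell by 0.65. Cacna1g and Cacna1h, the T-type calcium channels, fell by 0.74 and 0.69, but Cacna1g was lower in 4 of 6 hearts and was not called without animal 5 (adjusted p = 0.079). Smoc2 was the member that rose, by 0.36. With the alignment share in the model, 4 genes of the list were lower and none higher.

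Developmental transcription factors of the heart were lower together. Of 29 tested patterning factors, 13 were lower and none higher, with a median of -0.41, and the list mean was lower in all 6 hearts by -0.73 to -0.15. Gata4, a zinc finger factor of cardiac development, did not overlap between positions, with 52.7, 92.3 and 115 CPM in the border libraries and 126, 135 and 140 CPM in the remote libraries (log2 fold change -0.66, SE 0.13, adjusted p = 0.00382). Tbx5, whose promoter is shown above and whose dose matters for septation and conduction, was at 8.20, 24.7 and 32.7 CPM against 18.3, 40.0 and 46.2 CPM, and was lower in 6 of 6 hearts at -0.75 (SE 0.08, adjusted p = 0.00033). Prox1 fell by 0.84, Tbx20 by 0.57, Nkx2-5 by 0.42 and Gata6 by 0.38. Irx4 was lower at -0.43. Irx2 was called at -0.65 (adjusted p = 0.043) but not without animal 5 (adjusted p = 0.104). Without animal 5, 11 factors were lower, and with the alignment share in the model 5 were, without Nkx2-5, Gata6, Irx2 and Irx4 (adjusted p = 0.0804, 0.0547, 0.496 and 0.0895).

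**Figure D4:**
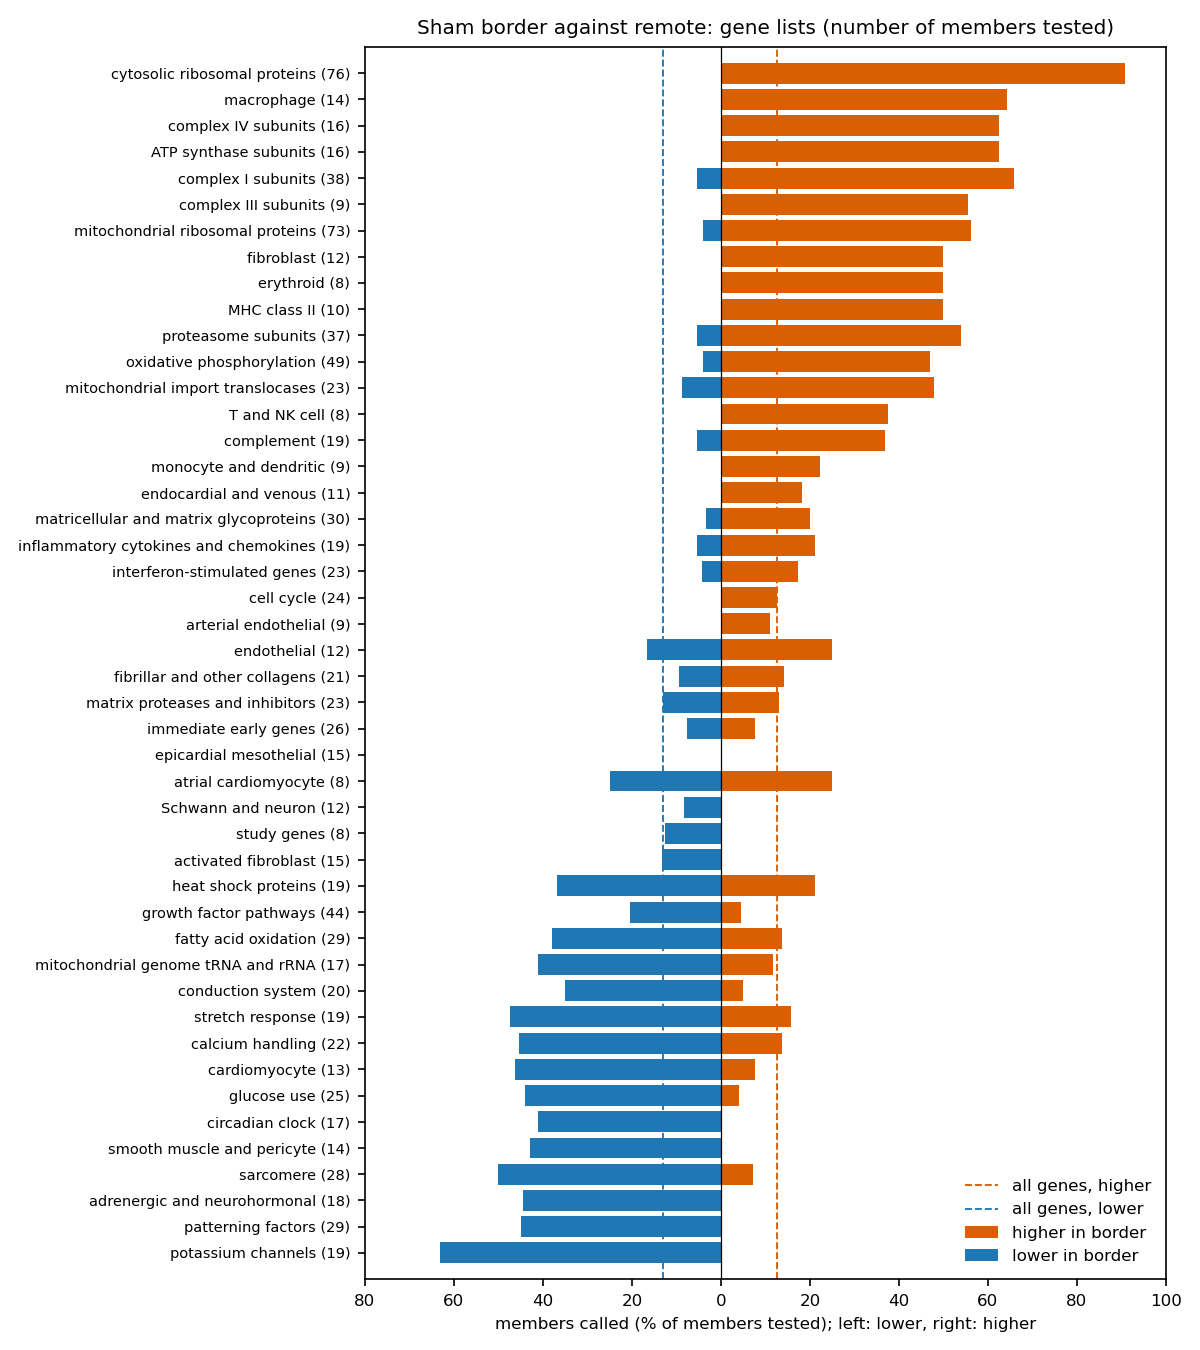
Percentage of tested members called higher (right) or lower (left) in the border position for the 46 gene lists with at least 8 tested members, with dashed lines at the background of 12.7% higher and 13.0% lower. Ribosomal proteins, respiratory complexes and macrophage genes lie far to the right, and potassium channels, sarcomere, patterning factors, glucose use and smooth muscle genes far to the left.

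Fuel use genes were lower on balance. Of 29 fatty acid oxidation genes, 11 were lower and 4 higher (median -0.23). Cpt1b, which admits long-chain fatty acids to the mitochondrion in muscle, was at 119, 412 and 477 CPM in border libraries and at 308, 597 and 667 CPM in remote libraries and fell by 0.69 (SE 0.12, adjusted p = 0.00222). Ppara, the nuclear receptor that drives this pathway, fell by 0.50, while Fabp3, the heart fatty acid binding protein, rose by 0.26. Of 25 glucose use genes, 11 were lower and 1 higher (median -0.22). Hk1, a hexokinase, was at 106 to 155 CPM in the border position and 187 to 231 CPM in the remote position, without overlap (log2 fold change -0.59, SE 0.08, adjusted p = 0.000528). Pygm, the muscle glycogen phosphorylase, fell by 0.78 and Slc2a4, the insulin-responsive glucose transporter, by 0.33. Tpi1 was the one that rose, by 0.28. The calls of Fabp3, Slc2a4 and Tpi1 were lost with the alignment share in the model (adjusted p = 0.511, 0.217 and 0.115).

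More receptor, stretch and clock genes were lower than higher. Of 18 adrenergic and neurohormonal genes, 8 were lower and none higher, among them Adra1a, an alpha-1 adrenergic receptor, at -0.74, Chrm2, the cardiac muscarinic receptor, at -0.57, and Corin, the protease that activates natriuretic peptides, at -0.61. Adrb1 was at -0.50, a call lost without animal 5 (adjusted p = 0.0625). Of 19 stretch response genes 9 were lower and 3 higher. Xirp1, a protein of the intercalated disc, did not overlap (62.9 to 177 CPM against 182 to 250, log2 fold change -0.87, SE 0.14, adjusted p = 0.00168). The natriuretic peptides went the other way, with Nppa at 0.49 and Nppb at 0.39. Of 17 clock genes 7 were lower and none higher, including Nr1d1 at -0.52 and Cry1 at -0.46. Of 19 heat shock genes 7 were lower, among them Bag3, a co-chaperone of the Z disc, with no overlap (-0.65), and 4 were higher, among them the mitochondrial Hspe1 (0.60). With the alignment share in the model Nppb was at 0.11 (adjusted p = 0.675), Nppa at 0.59 (0.214) and Hspe1 at 0.37 (0.157), and Adra1a, Adrb1, Corin and Nr1d1 were not called (adjusted p = 0.0504, 0.227, 0.0565 and 0.144).

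Fibroblast markers were higher in the border position. Of 12 markers, 6 were higher and none lower, with a median of 0.37 and a list mean that was higher in 6 of 6 hearts (0.15 to 0.78). Tcf21, a transcription factor that marks resident cardiac fibroblasts, was at 20.4, 32.3 and 40.0 CPM in border libraries and at 13.3, 19.4 and 27.5 CPM in remote libraries and rose by 0.68 (SE 0.12, adjusted p = 0.00201). Dpt, a matrix protein, rose by 0.71 and the proteoglycan Dcn by 0.44. Pdgfra was at 0.21 (adjusted p = 0.168) and Col1a1 at 0.00 (adjusted p = 0.981), so neither passed. Without animal 5, 7 of the 12 were higher and none lower. With the alignment share in the model 1 was higher, and Tcf21, Dcn, Eln and Col4a1 were not called (adjusted p = 0.0579, 0.222, 0.0616 and 0.129). Of 15 genes of activated fibroblasts none was higher and 2 were lower, with a median of 0.15. Among matrix glycoproteins 6 of 30 were higher and 1 lower, including Eln, elastin, at 0.46. Of 21 collagen genes 3 were higher and 2 lower, the lower ones being Col4a1 (-0.48) and Col4a2 (-0.45) of the basement membrane. The called shares were 23.3% for matrix glycoproteins and 23.8% for collagens, near the 25.7% of all genes tested. The share of the activated fibroblast list was 13.3%, below that of all genes.

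Macrophage and other immune genes were also higher, but many of these calls were lost without animal 5. For the macrophage and MHC class II lists as many were lost without animal 1. Of 14 macrophage genes 9 were higher and none lower (median 0.41). Without animal 5, 2 were higher (median 0.39), and without animal 1, 2 were (median 0.36). C1qa, a chain of the first complement component that tissue macrophages make, was at 46.6, 85.4 and 712 CPM in border libraries and at 39.6, 53.1 and 394 CPM in remote libraries. The highest value in each group is that of animal 5. C1qa rose by 0.68 (SE 0.15, adjusted p = 0.00749) and, without that animal, by 0.64 (adjusted p = 0.0279). C1qb, Lyz2 and RT1-Da were called with animal 5 and not without it (adjusted p = 0.0769, 0.115 and 0.0707). The general macrophage markers Cd68 (0.02, adjusted p = 0.912) and Csf1r (0.22, adjusted p = 0.0685) did not pass. Of 10 MHC class II genes 5 were higher with all animals, 1 without animal 5 and 1 without animal 1. Cd74, the invariant chain, was at 0.03 (adjusted p = 0.809). Of 8 T and NK cell genes 3 were higher. Ncr1, a receptor of natural killer cells, which nude rats retain, was higher in 6 of 6 hearts at low counts (2.03, 2.84 and 5.75 CPM against 0.403, 1.64 and 3.37) with a log2 fold change of 1.07 (SE 0.25, adjusted p = 0.0093). The chemokine Ccl2 rose by 0.60 and the interferon-induced Ifi27 by 0.78, both also without animal 5 (adjusted p = 0.0251 and 0.0028). The calls of Ncr1, Ccl2, C1qb, Lyz2 and RT1-Da were lost with the alignment share in the model (adjusted p = 0.102, 0.0792, 0.232, 0.333 and 0.412). Of 19 complement genes 7 were higher and 1 lower, and the lower one, Clu, did not overlap (971 to 1280.0 CPM against 1502.3 to 2345.4, log2 fold change -0.66).

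Vascular, epicardial and blood genes differed in direction. Of 14 smooth muscle and pericyte genes none was higher and 6 were lower (median -0.36), with Myh11, the smooth muscle myosin, at -0.64, Acta2 at -0.53 and Notch3 at -0.53. Of 12 endothelial genes 3 were higher and 2 lower, with Cdh5, the endothelial cadherin, at -0.54 and Fabp4 at 0.71. Of 15 epicardial and mesothelial genes none passed in either direction, although the median was 0.61. Msln, mesothelin of the epicardial surface, was at 5.84, 16.1 and 125 CPM in border libraries and 0.373, 9.11 and 46.5 CPM in remote libraries, and its highest values were in the border pieces of animals 1 and 2 (log2 fold change 1.04, SE 0.64, adjusted p = 0.261). Wt1, the epicardial transcription factor, was at 0.05 (adjusted p = 0.754). Red cell genes were higher, with 4 of 8 called and none lower. Hbb, the beta globin, was at 295, 1010.7 and 1838.2 CPM against 118, 363 and 967 CPM, higher in 6 of 6 hearts by 1.29 (SE 0.23, adjusted p = 0.00226). The calls of Myh11, Acta2, Notch3 and Cdh5 were lost with the alignment share in the model (adjusted p = 0.129, 0.139, 0.156 and 0.0824). Skeletal muscle and lung markers gave no higher call, with 0 of 6 and 0 of 2 tested members, while 2 skeletal muscle genes were lower. The lists hold 15 and 10 genes, most of which had too few counts to be tested, so little can be said from them. The atrial light chain Myl7 reached at most 7.78 CPM in the border libraries and 184 CPM in the remote piece of animal 6.

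By the rule for single genes, 3063 genes passed the threshold with the same sign in all 6 hearts and sufficient counts, and the top 15 of each direction by fold change were taken. The largest was Rpl37, a ribosomal protein, at 1.66 (SE 0.26, adjusted p = 0.00145), with 3.15 to 5.40 CPM in the border position and 0.622 to 1.79 CPM in the remote position. The level of Rpl37 is low and, as for the other ribosomal protein genes, its count is uncertain. Ribosomal protein copies followed, namely Rps18l1 at 1.39 and the loci matched by gene ID to Rpl13a-ps4 (1.62), Rps2-ps18 (1.34), Rps2-ps9 (1.31) and Rps14-ps7 (1.30), which share reads with their parent genes and are uncertain. Snrpgl1 (1.22) and Cycs-ps9 (1.18) are copies as well. Naa38, an auxiliary subunit of the N-terminal acetyltransferase C complex, rose by 1.26 without overlap (17.9 to 26.9 CPM against 4.67 to 13.9). The locus matched to Strit1, which encodes the calcium pump activator DWORF, rose by 1.42 (5.75 to 60.1 CPM against 2.61 to 16.3). Ifi27l2b rose by 1.29 and Cryba4 by 1.23, and an uncharacterised non-coding locus rose by 1.51. With the alignment share in the model the Strit1 locus was at 0.88 (adjusted p = 0.216, and 0.135 without the animal block), and Rpl37, Rps18l1, Cryba4 and the Rps14-ps7 and Cycs-ps9 loci were not called (adjusted p = 0.0949, 0.101, 0.0978, 0.107 and 0.131).

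Among the falls, Hcn4 came first and Myh6 is described above. Alpk2, a kinase of the heart, fell by 1.01 (41.8, 121 and 159 CPM against 153, 219 and 243), Ctnna3, the alpha-T-catenin of the intercalated disc, by 0.97, and Synpo2, an actin-binding protein, by 0.95 with no overlap (40.8 to 112 CPM against 128 to 156). Wfs1, a protein of the endoplasmic reticulum, fell by 0.91 without overlap, and Wnk2 by 0.91. Hamp, which encodes hepcidin, the iron-regulating peptide, fell by 1.00 at 0.840 to 5.82 CPM against 2.79 to 21.1. Csdc2, an RNA-binding protein, fell by 0.94, Atp2b2, a plasma membrane calcium pump, by 1.00, Grid1, a glutamate receptor subunit, by 0.89 and Frem2, an extracellular matrix protein, by 0.89. The loci with no matched name fell by 1.20 and 1.18. In all of these the border value was the lower one in 6 of 6 hearts. With the alignment share in the model Hamp was at -1.27, Csdc2 at -0.92, Atp2b2 at -1.35 and Grid1 at -1.39. Frem2 was at -1.10 and the first of the loci with no matched name at -1.37. The calls of these genes were lost in that model (edgeR adjusted p = 0.0649, 0.148, 0.14, 0.0688, 0.148 and 0.119).

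Few differences were detected between the border position and the infarct position of the same hearts, which is another piece of free wall. Between them 1 of 15056 genes passed (0.00664%), against 25.7% between border and remote. The gene was Ndufb3, an accessory subunit of complex I, at -0.51 (SE 0.06, adjusted p = 0.0269), with mean levels of 315 CPM in the border position and 446 CPM in the infarct position. At an unadjusted p under 0.05, 1125 genes passed, and DESeq2 called 67. A p that missed the threshold does not show that the pieces were alike. The infarct and border comparisons share the remote libraries, so their values are given side by side only. The median log2 fold change against remote was 0.50 for complex I in the infarct position and 0.39 in the border position, -0.37 and -0.41 for patterning factors, and -0.46 in both for the sarcomere. Hcn4 was at -1.43 in the infarct position and -1.21 in the border position. Reads with no unique alignment made up 3.67%, 3.94% and 11.7% of counts in the infarct libraries at the lowest, the median and the highest. Rn45s was at 0.29 against remote in the infarct position and at -0.85 in the border position. The part of the alignment share in these values was not tested.

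The regional difference was set against that of the infarcted hearts by an interaction term. Within untreated MI hearts alone, edgeR called none of 15738 genes between border and remote (0.00%), with 5943 at an unadjusted p under 0.05 and 4651 called by DESeq2. Within cell sheet hearts it called 8975 of 15904 (56.4%). For untreated MI against sham, none of 16475 genes passed in edgeR's test (0.00%). At an unadjusted p under 0.05 there were 3995, and DESeq2 called 1483. The count was 1539 without MI animal 5 and 0 when any other single animal was left out. For cell sheet hearts against sham, 7264 of 16518 genes passed (44.0%), 3541 with a more positive and 3723 with a more negative border-minus-remote difference. Without TMM factors the more positive ones made up 65.7% of calls in place of 48.7%, as the median over all genes moved to 0.22. Respiratory chain genes were among them. Cox7c was at 1.10 in sham, -0.23 in untreated MI and -1.46 in cell sheet hearts, with a difference of -2.56 (SE 0.37, adjusted p = 0.000356) for cell sheet against sham and -1.32 (SE 0.31, adjusted p = 0.066) for MI against sham. The median of complex I was 0.39, -0.84 and -1.52 in the same order, and that of complex IV was 0.53, -0.76 and -1.49. In the cell sheet test 37 of 39 complex I subunits had a more negative difference and none a more positive one.

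The values for MI hearts are given as a description, since no gene passed there on its own. Several other groups had medians of one sign in the 3 treatments, which the conduction list (-0.41, -0.37 and 0.02) did not. The sarcomere median was -0.46 in sham, -1.24 in MI and -1.90 in cell sheet hearts, that of potassium channels was -0.43, -1.09 and -1.62, and that of patterning factors was -0.41, -0.79 and -0.51. Tbx5 was at -0.75, -1.44 and -1.09, and its difference from sham did not pass in either (adjusted p = 0.213 and 0.216). Hcn4 was at -1.21, -1.65 and -1.78 and did not pass either (adjusted p = 0.767 and 0.676). Macrophage genes had medians of 0.41, 1.28 and 1.91, and in the cell sheet test 14 of 14 had a more positive difference. The fibroblast median was 0.37, 0.59 and 1.09. Cytosolic ribosomal proteins had medians of 0.48, 0.30 and 0.01. The medians over all genes were 0.01, 0.03 and 0.04. The share of reads with no unique alignment differed between positions in opposite directions in sham and cell sheet hearts, as given above, and its part in these differences was not tested.

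**Figure D5:**
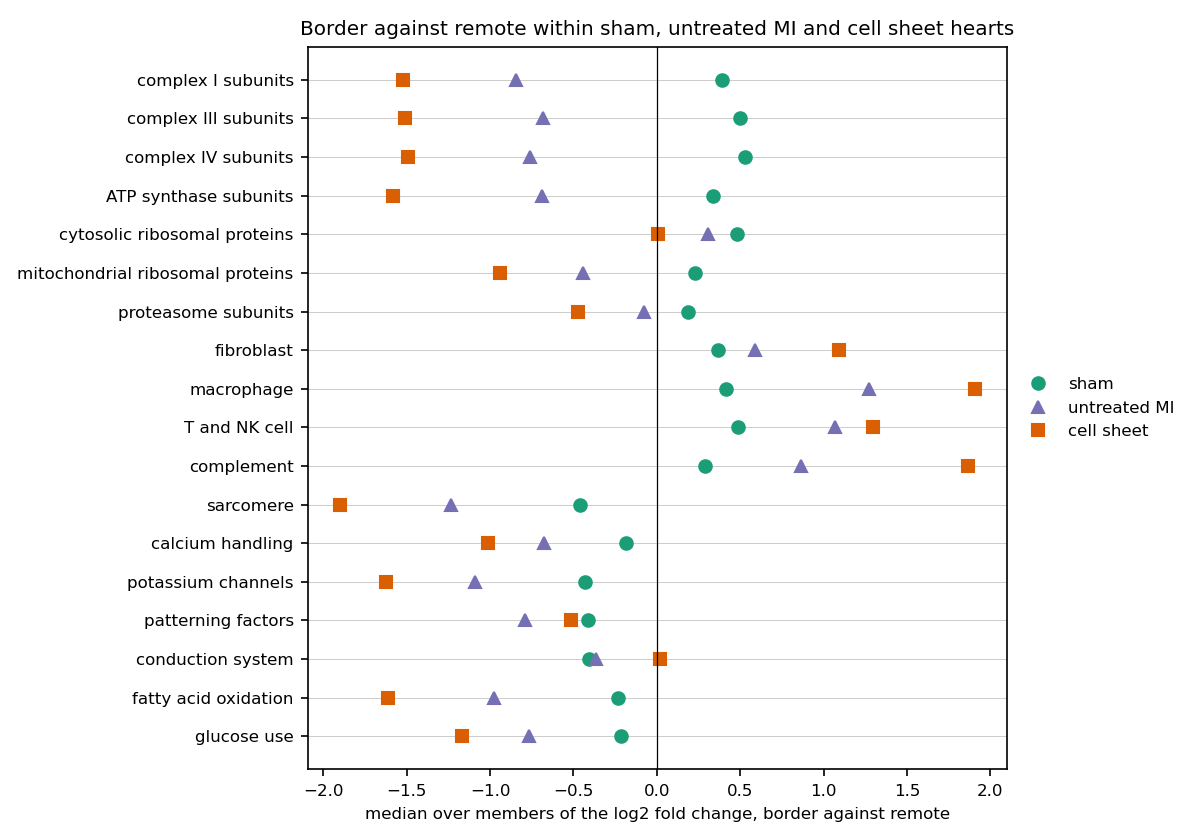
Median log2 fold change, border over remote, of 18 gene lists in sham, untreated MI and cell sheet hearts, 1 point per treatment. The respiratory complexes lie above 0 in sham hearts and below 0 in both infarcted groups, and the sarcomere, potassium channels and patterning factors lie below 0 in all 3.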

How the data were processed

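Per the labels and the study's methods, the authors aligned paired reads with STAR to mRatBN7.2 and deposited raw counts per gene (40319 genes per table). The counter and strand setting are not given in the sources used here, so antisense and overlapping genes cannot be told apart. Lines that name no gene were dropped (reads on no gene were 18.7% to 34.0% of counts).

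Genes were tested in R 4.3.3 with edgeR 4.0.16 (quasi-likelihood F test, TMM, filterByExpr, Benjamini-Hochberg over all genes tested, threshold 0.05) with the animal as a block, since paired pieces came from one heart. Deviations of paired libraries correlated at 0.260 to 0.936, and at 0.00227 to 0.296 without animal 5. With all animals, 5 border libraries correlated most with the remote library of their own heart. That of animal 2 correlated most with the remote library of animal 3. Interactions used 24 libraries each. Library measures were compared by a 2-sided exact sign-flip test. Alternatives were DESeq2 1.42.0, limma 3.58.1, other scalings, filters, left-out animals and covariates. The scripts were tested on simulated data. No pair of libraries within a position agreed within sampling noise.

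Genes were named as the top 15 in each direction by fold change among called genes whose mean log2 CPM reached 1 and whose sign was the same in all 6 hearts, plus list members and genes the study discusses. Some list members are not reported here. Members and lists were chosen with earlier results of these data known. The 9 gene families and the alignment covariate were chosen after values had been seen.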

Additional observations from a re-analysis of the deposited data

Results flagged for a closer look

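In groups of 6 libraries, a library was marked where its gap to the nearest of the others made up a larger part of the range of the group than Dixon's 95% critical value. Of 70 groups tested, 13 were marked, and chance marks about 1 in 20. All 13 marks fell on animal 5. The ratio was 0.879 for the first principal component in the border position and 0.861 in the remote position. Among named genes it was 0.695 for Ifi27l2b in the remote position, 0.638 for LOC100363502 in the border position, 0.843 for LOC120098203 in the remote position, 0.709 for Alpk2 in the remote position, 0.758 for Atp2b2 in the border position, 0.662 and 0.746 for Trnh in the border and remote positions, 0.744 for Ctnna3, 0.822 for Myh6 and 0.755 for Wnk2 in the remote position, and 0.640 for Frem2 in the border position.

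For 14 of the 30 named genes the border-minus-remote difference in cell sheet hearts departed from that in sham hearts in edgeR's interaction test, against 44.0% of all genes tested, so this count is near the background. The genes had been picked for a large sham difference, and all 14 departures ran against it. On the log2 scale the difference between treatments was -1.83 for Rpl37, -1.19 for LOC100362583, -3.98 for LOC102546391, -1.57 for Rps18l1, -0.97 for LOC120095146, -0.95 for LOC679871, -1.41 for LOC100911847, -1.94 for Hbb, -1.61 for Naa38, -1.45 for Cryba4, -0.96 for LOC687679, -2.76 for LOC100363502, -1.78 for Tomm7 and +0.50 for Wfs1.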

How the results depend on the processing

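For border against remote, 3881 genes were called with the animal as a block and 307 with no replicate block. With a log2 fold change above 1 in size 102 were called, with the share of reads with no unique alignment as a covariate 781, with DESeq2 3626, with voom 3328, and 2437 to 3835 when each animal in turn was left out, the lowest without animal 1. For border against infarct position the count of 1 became 0 with no replicate block, 67 with DESeq2, 151 with no filter on low counts, 0 without TMM factors and 0 to 2 with each animal left out. For untreated MI against sham the count of 0 became 1483 with DESeq2 and 0 to 1539 with each animal left out, the highest without MI animal 5. It was 0 with no replicate block, where 2231 genes passed at an unadjusted p under 0.05. For cell sheet against sham the count of 7264 became 2669 with no replicate block and 5947 to 7793 with each animal left out, and without TMM factors the share of more positive differences among the calls was 65.7% in place of 48.7%, with the median of all genes at 0.22. The cause of these changes was not tested.

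Of 133 genes examined singly 121 were called, and over 1593 gene-setting combinations 1358 kept direction and call, 228 kept direction and lost the call, 7 gained it and 0 changed sign. The most calls were lost with no replicate block (99 genes) and with the alignment share as a covariate (71). Depth limits the genes near 1 CPM, such as Ncr1 and Krt7, whose values rest on few counts.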

Other observations

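Immediate early and cell cycle genes were called less often between the border and remote positions than all genes tested. Their called shares were 15.4% and 12.5%, against 25.7% of all genes tested. The called share of the growth factor genes was near that of all genes tested. Of 26 immediate early genes 2 were higher and 2 lower (median 0.03), with Klf6 and Maff higher and Egr1 and Zfp36 lower. Of 24 cell cycle genes 3 were higher and none lower, while none was called without animal 5 and 1 without animal 1. The 3 included Cdk1, the mitotic kinase, at 0.55 (adjusted p = 0.0143 in edgeR's test, and 0.0545 without animal 5). Of 44 growth factor genes 2 were higher and 9 lower. Bmp4 did not overlap between positions (15.8 to 23.2 CPM in border libraries against 10.8 to 14.7 CPM in remote libraries) and rose by 0.53, while Wnt5a fell by 0.55. Of the 8 tested genes that the study discusses, Notch3 was called, and it was lower. The calls of Cdk1, Bmp4, Wnt5a and Notch3 were lost with the alignment share in the model (adjusted p = 0.294, 0.174, 0.129 and 0.156).

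Among the lists of other cells, 2 of 8 atrial genes were higher and 2 lower. Of 6 mast cell genes 1 was lower. Of 4 adipocyte genes tested 2 were higher, Cfd (0.67) and Fabp4 (0.71), and 1 was lower. Of 23 interferon-stimulated genes 4 were higher and 1 lower, with Isg15 at 0.61. Of 23 matrix protease and inhibitor genes 3 were higher and 3 lower, with Mmp23 at 0.69. The called shares of the interferon and matrix protease lists were 21.7% and 26.1%, against 25.7% of all genes tested. The calls of Cfd, Isg15 and Mmp23 were lost with the alignment share in the model (adjusted p = 0.0662, 0.158 and 0.0882).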
